A study of Mus musculus with 4 samples.

Results

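Matrix glycoproteins and proteoglycans are the secreted and cell-surface proteins, other than collagens and laminins, that build and bind the extracellular matrix. The list held 40 genes named by function, and 37 of them had a probe set that the array's gene table assigns to that gene alone, out of 19939 genes tested. Fbn1, Efemp2 and Spp1 are not analysed here. Every one of the 37 was read by a single probe set, so no choice between probe sets was needed.

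The RNA was that of Py2T, a line of murine breast cancer cells in which TGFβ drives an epithelial to mesenchymal transition, and was measured on 4 Affymetrix arrays. For 2 of the arrays the cells had received TGFβ at 2 ng/ml over 5 days, and for the other 2 they were kept without it. Both groups grew in DMEM with glutamine, penicillin, streptomycin and 10% FCS, and the labels call the samples biological replicates without saying how the cultures were separated, so the spread behind each p-value may be technical. All cells are of a single line, and serum was present in both groups. The question was how the transition under TGFβ changes RNA levels.

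Fibronectin is assembled by cells into fibrils through integrins, and fibrillins, fibulins and emilins organise elastic fibres. Matricellular proteins such as tenascin C and the thrombospondins modulate adhesion and growth factor activity without bearing load. Proteoglycans carry chondroitin, dermatan or heparan sulphate chains, and the syndecans and glypicans present these chains at the cell surface as co-receptors for growth factors. TGFβ is a long-known inducer of matrix genes in fibroblasts and in epithelial cells undergoing a mesenchymal transition.

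After TGFβ the matrix list moved in both directions. Matn2 (2.56-fold), Sdc3 (2.45-fold) and Vcan (2.22-fold) had the largest rises, and Gpc4 (3.01-fold lower) and Gpc6 (1.88-fold lower) the largest falls. Of the 37 members 8 rose (21.6%), 5 fell (13.5%) and 24 did not pass limma's test at an adjusted p under 0.05. Over all genes tested 6.49% rose and 7.15% fell, 13.6% in either direction. The members were chosen with earlier results of these data known, so their shares are a description and were not tested. The members' median log2 difference was 0.04, against 0.01 for all genes, so the list had no common shift, and without untreated replicate 1 the members' median was -0.02. At least a 2-fold difference was reached by 3 members that rose and 1 that fell, with a background of 1.62% of all genes higher and 1.78% lower by that rule. The groups did not overlap for 20 of the 37 members, near the 52.6% seen over all genes. Without untreated replicate 1 the count of members that fell was 3.

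**Figure D1:**
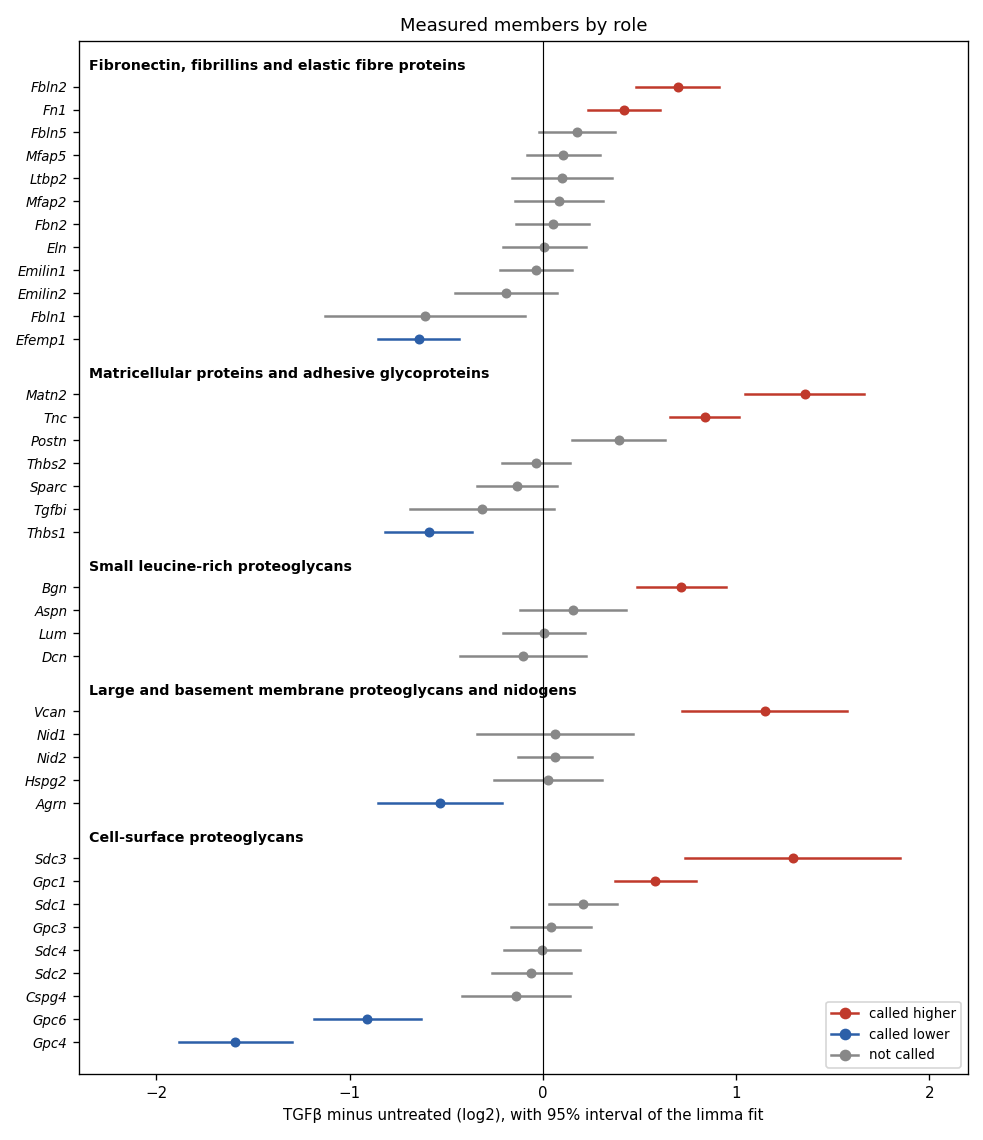
Log2 difference (TGFβ minus untreated, x axis) of each of the 37 measured members, grouped by role, with the 95% interval of the limma fit. Gpc4 and Gpc6 lie farthest left, Matn2, Sdc3 and Vcan farthest right, and most intervals of the grey members cross 0.

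The 4 arrays were of like scale, with medians over all probe sets between 6.74 and 6.76 on the log2 scale and values between 3.33 and 14.29. Values are the authors' RMA summaries, log2 intensities normalized between arrays, and they come without detection calls, so a low value cannot be told from background and levels of different genes are not compared. As a description, 14 of the 37 members had both group means under 7, against 9022 of all 19939 genes. The level of 7 was chosen after the values were seen. Epithelial markers were present in both groups (8 of 8 with means of 8.65 or more), and 3 of them fell. The summed signal of all 8 was 15.33 and 15.42 on the log2 scale in TGFβ-treated cells, against 15.61 and 15.57 in untreated cells. Sums were taken before the log, so the brightest markers weigh most. Here these were Krt7, Krt8 and Krt18 (means between 13.21 and 13.57), which did not pass. Of 8 fibroblast markers, 2 rose (Pdgfrb and Col1a1) and 4 had both means under 7, among them Thy1, Fap and Dpt. The summed fibroblast marker signal was 10.35 and 10.53 on the log2 scale in TGFβ-treated cells, against 9.96 and 10.06 in untreated cells. All 5 endothelial markers and 4 of 5 immune markers had both means under 7, and none of these 10 passed. The other immune marker, Cd68, averaged 7.96 in TGFβ-treated cells and 9.25 in untreated cells (log2 difference -1.29, adjusted p = 0.052). The summed immune signal was 8.72 and 9.14 in TGFβ-treated cells, against 10.01 and 9.44 in untreated cells, and the endothelial sum was 7.86 and 7.85, against 7.80 and 7.79. The part of these markers in the members' differences was not tested. Fewer cells of a kind and less RNA per cell cannot be told apart in such bulk samples.

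Promoters of the members were read from RefSeq on GRCm38.p6, where 25 of the 37 measured members matched, 8 of them among the 13 that passed. The 250 bases before the first-listed start were searched on both strands for letters read by AP-1 (TGANTCA), TEAD factors (GGAATG), Smads (CAGAC) and E-box repressors such as Zeb and Snail (CAGGTG). The AP-1 letters were in 1 of 25 members (4%), against 6.87% of all 27025 promoters, and the TEAD letters in 2 (8%), against 12.6%. The Smad letters were in 11 members (44.0%), against 42.1% of all, and the E-box letters in 1 (4%), against 17.1%. Among the 5 members that rose and had an entry, only Sdc3 held any of these letters, and among the 3 that fell, Gpc4 and Efemp1 did. Of the 17 members with an entry that did not pass, 10 held the Smad letters. Windows are shown for the called members with a match and for Tnc, which rose and held none, with matched letters in capitals and only bases outside the annotated gene.
Gpc4 (chrX:52164924-52165173, minus strand, TEAD letters at -131 to -126 from the start): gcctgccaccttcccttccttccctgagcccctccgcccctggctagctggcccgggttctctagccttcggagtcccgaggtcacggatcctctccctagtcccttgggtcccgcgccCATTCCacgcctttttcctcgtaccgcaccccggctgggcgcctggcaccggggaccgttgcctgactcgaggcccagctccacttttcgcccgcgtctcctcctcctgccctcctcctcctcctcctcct
Sdc3 (chr4:130792287-130792536, plus strand, Smad letters at -206 to -202 and at -141 to -137): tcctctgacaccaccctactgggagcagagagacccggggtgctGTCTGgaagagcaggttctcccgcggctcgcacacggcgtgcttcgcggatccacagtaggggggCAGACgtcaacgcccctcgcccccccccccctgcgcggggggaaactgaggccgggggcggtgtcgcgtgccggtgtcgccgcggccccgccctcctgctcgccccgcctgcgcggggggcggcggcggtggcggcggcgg
Efemp1 (chr11:28852955-28853153, plus strand, AP-1 letters at -154 to -148): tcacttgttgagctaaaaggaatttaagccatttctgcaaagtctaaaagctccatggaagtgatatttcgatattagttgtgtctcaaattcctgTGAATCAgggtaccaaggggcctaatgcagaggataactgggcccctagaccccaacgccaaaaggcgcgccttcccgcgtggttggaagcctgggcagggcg
Tnc (chr4:64047016-64047265, minus strand, no match): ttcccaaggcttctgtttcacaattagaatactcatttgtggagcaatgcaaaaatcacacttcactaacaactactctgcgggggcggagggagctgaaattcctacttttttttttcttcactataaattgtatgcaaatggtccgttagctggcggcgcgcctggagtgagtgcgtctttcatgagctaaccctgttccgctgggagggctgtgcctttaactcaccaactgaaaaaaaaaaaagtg
A match here is only a run of letters, and binding was not measured.

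Of 12 measured genes for fibronectin, fibulins and elastic fibre proteins, 2 rose, 1 fell and 9 did not pass. For this and each later role the background is 6.49% of all genes higher and 7.15% lower. Each role holds too few genes for its share to be read against that. Fbln2, a fibulin that bridges fibronectin, fibrillin and basement membrane proteins, read 12.98 and 12.91 in TGFβ-treated cells, against 12.32 and 12.17 in untreated cells. It rose by 0.70 ± 0.09 (log2 difference ± SE, adjusted p = 0.0062), or 1.62-fold, and both TGFβ arrays lay above both untreated arrays by more than the spread within either group. Fn1, fibronectin itself, read 13.68 and 13.67 in TGFβ-treated cells and 13.30 and 13.21 in untreated cells, high on the scale, where differences can be compressed. Its rise of 0.42 (1.34-fold, adjusted p = 0.020) was of like size but not called when any array was left out. It was then 0.42 without TGFβ replicate 1 (adjusted p = 0.068) and 0.42 without TGFβ replicate 2 (0.057). Without untreated replicates it was 0.47 (replicate 1, adjusted p = 0.063) and 0.38 (replicate 2, 0.11).

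Efemp1, which encodes fibulin-3, moved the other way. It read 5.17 and 5.22 in TGFβ-treated cells, against 5.92 and 5.76 in untreated cells, and fell by 0.64 on the log2 scale (adjusted p = 0.0074), with every value low on the array's scale. Fbln1, the fibulin found with fibronectin and elastic fibres, had 7.36 and 8.02 in TGFβ-treated cells and 8.23 and 8.37 in untreated cells. Its groups did not overlap, but the TGFβ arrays differed by 0.66 from each other, more than the untreated arrays did, and the difference of -0.61 did not pass (95% interval -1.13 to -0.09, adjusted p = 0.13). Without TGFβ replicate 2 the difference was -0.94 and passed (adjusted p = 0.0069).

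The fibulins therefore differed among themselves in sign, and Fbln5, which tethers elastin to integrins, differed by 0.18 without passing (95% interval -0.02 to 0.37). No test was run between family members. Eln, the elastin precursor, differed by 0.01 (95% interval -0.21 to 0.22), with means of 6.93 in TGFβ-treated cells and 6.92 in untreated cells. The microfibril genes Fbn2 (0.05), Mfap2 (0.08) and Mfap5 (0.11), the emilins Emilin1 (-0.03) and Emilin2 (-0.19), and Ltbp2 (0.10) did not pass either. Of these Ltbp2, a fibrillin-binding relative of the latent TGFβ binding proteins, was well above the low end, at 10.23 ± 0.11 in TGFβ-treated cells and 10.13 ± 0.15 in untreated cells (SD, n = 2 each). The others had means between 5.997 and 7.12.

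Of 7 measured matricellular and adhesive glycoproteins, 2 rose, 1 fell and 4 did not pass. Matn2, matrilin-2, an adaptor that joins collagen, fibrillin and laminin networks, had the largest rise of the list. It read 8.22 and 8.34 in TGFβ-treated cells, against 7.09 and 6.76 in untreated cells, a log2 difference of 1.35 ± 0.13 (SE, 95% interval 1.05 to 1.66, adjusted p = 0.0024). Both TGFβ arrays lay well above both untreated arrays. It was called without any single array, at differences between 1.19 and 1.52.

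Tnc, tenascin C, a hexameric glycoprotein of wound and tumour stroma, rose with little spread within either group. Its values were 13.22 and 13.17 in TGFβ-treated cells, against 12.38 and 12.34 in untreated cells, again high on the scale. The difference was 0.84 ± 0.07 (SE, 1.79-fold, adjusted p = 0.0020), and it was called without any single array. Thbs1, thrombospondin-1, which can activate latent TGFβ and is itself often induced by it, was lower here. It read 12.60 and 12.41 in TGFβ-treated cells and 13.13 and 13.07 in untreated cells, and fell by 0.59 on the log2 scale (adjusted p = 0.012). Without untreated replicate 1 its adjusted p was 0.061, at a difference of -0.56.

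Thbs2, the closest relative of Thbs1 among the members, differed by -0.04 (95% interval -0.21 to 0.14) at means of 5.86 in TGFβ-treated cells and 5.89 in untreated cells. Sparc, a collagen-binding matricellular protein, differed by -0.14 (95% interval -0.34 to 0.07) with means of 11.35 in TGFβ-treated cells and 11.48 in untreated cells. Tgfbi, named for its induction by TGFβ in other cells, read 9.03 and 9.40 in TGFβ-treated cells, against 9.39 and 9.66 in untreated cells. The groups of Tgfbi overlapped, and its difference of -0.32 did not pass (95% interval -0.69 to 0.06, adjusted p = 0.28), an interval that holds no rise above 0.06. Postn, periostin, had 5.64 and 5.45 in TGFβ-treated cells, against 5.21 and 5.09 in untreated cells, and missed the threshold at a difference of 0.39 (adjusted p = 0.054). It passed when variances were fitted with a trend on intensity and robustly (adjusted p = 0.021), and also when TGFβ replicate 2 was left out (0.49, adjusted p = 0.044), at values near the bottom of the array's range.

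Of the 4 small leucine-rich proteoglycans, which bind collagen fibrils and can sequester TGFβ, 1 rose and 3 did not pass. Bgn, biglycan, read 7.09 and 6.91 in TGFβ-treated cells, against 6.34 and 6.22 in untreated cells. It rose by 0.72 ± 0.09 (SE, 1.64-fold, adjusted p = 0.0072), with no overlap, and was called without any single array. Dcn (decorin), Lum (lumican) and Aspn (asporin) had means between 4.34 and 5.22 in both groups and differences of -0.10, 0.01 and 0.16. These 3 lay near the lowest values of the array, so their intervals (widest for Dcn, -0.43 to 0.22) describe signals that may be background.

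Of 5 large and basement membrane proteoglycans and nidogens, 1 rose, 1 fell and 3 did not pass. Vcan, versican, a large chondroitin sulphate proteoglycan that binds hyaluronan, read 8.91 and 8.37 in TGFβ-treated cells, against 7.51 and 7.48 in untreated cells. The TGFβ arrays differed by 0.54 from each other, yet both lay above both untreated arrays, and the rise was 1.15 ± 0.17 (SE, 95% interval 0.72 to 1.58, adjusted p = 0.011). It was 0.88 without TGFβ replicate 1 and 1.42 without TGFβ replicate 2, and called in both. Agrn, agrin, a heparan sulphate proteoglycan of basement membranes that binds dystroglycan, read 9.96 and 10.27 in TGFβ-treated cells and 10.74 and 10.55 in untreated cells. Its fall of 0.53 on the log2 scale stood at the threshold (adjusted p = 0.04997). The difference did not pass at -0.38 when TGFβ replicate 1 was left out (adjusted p = 0.13), at -0.44 when untreated replicate 1 was (0.20) or at -0.63 when untreated replicate 2 was (0.073). At a difference as large as with all arrays, it also missed the threshold after cyclic loess (-0.54, adjusted p = 0.071) and repeated quantile normalization (-0.54, 0.068). With the mean of each gene's probe sets, which leaves the values of Agrn unchanged (-0.53), its adjusted p was 0.0504.

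Hspg2, perlecan, the other large heparan sulphate proteoglycan of basement membranes in the list, differed by 0.03 (95% interval -0.25 to 0.31) at 9.95 ± 0.20 in TGFβ-treated cells and 9.92 ± 0.08 in untreated cells (SD, n = 2 each). Nid1 and Nid2, the nidogens that link laminin to type IV collagen, both differed by 0.06, with intervals of -0.34 to 0.47 and -0.13 to 0.25. The interval of Nid1 is wide because its arrays spread by 0.32 in TGFβ-treated cells and 0.38 in untreated cells.

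**Figure D2:**
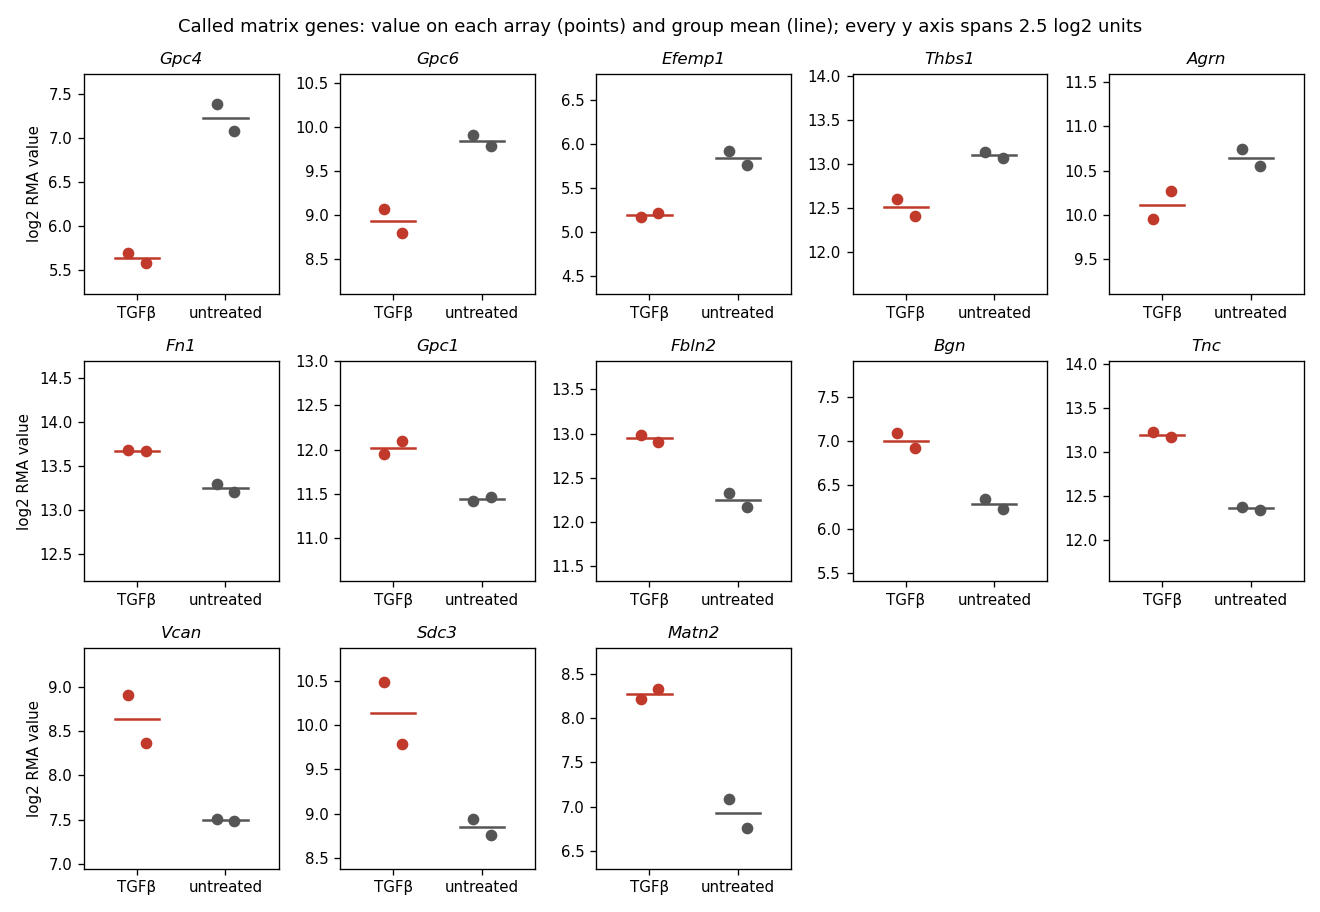
Log2 RMA value on each array (points) and group mean (line) for the 13 members that passed, TGFβ-treated at the left and untreated at the right of each panel, ordered from the largest fall to the largest rise. In every panel the groups do not overlap, which choosing the panels by a test on these same values favours. Over all genes 52.6% do not overlap. Sdc3 and Vcan show the widest gaps between the TGFβ arrays, 0.70 and 0.54.

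Cell-surface proteoglycans held the largest fall and 2 of the rises. Among 9 measured, 2 rose, 2 fell and 5 did not pass, beside 6.49% higher and 7.15% lower over all genes. Glypicans, heparan sulphate proteoglycans on a lipid anchor that tune Wnt, Hedgehog, BMP and FGF signals, differed in sign between members. Gpc4, whose window with the TEAD letters is printed above, read 5.70 and 5.58 in TGFβ-treated cells, against 7.38 and 7.08 in untreated cells. It fell by 1.59 on the log2 scale (SE 0.12, adjusted p = 0.0012), with TGFβ values low on the array's scale, where background limits the fold. Gpc6 read 9.07 and 8.80 in TGFβ-treated cells and 9.90 and 9.79 in untreated cells, and fell by 0.91 on the log2 scale (SE 0.11, adjusted p = 0.0059). Both were called without any single array.

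Gpc1, the glypican often raised in carcinomas, went up in the same cells. It read 11.95 and 12.10 in TGFβ-treated cells, against 11.42 and 11.46 in untreated cells, a rise of 0.58 ± 0.08 (SE, 1.498-fold, adjusted p = 0.0098). Without untreated replicate 1 its adjusted p was 0.052, at a difference of 0.56. Gpc3 differed by 0.04 (95% interval -0.17 to 0.25) at means of 6.08 in TGFβ-treated cells and 6.04 in untreated cells.

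Syndecans are transmembrane heparan sulphate proteoglycans that act beside integrins. Sdc3, a syndecan best known from the nervous system and muscle, read 10.50 and 9.79 in TGFβ-treated cells, against 8.94 and 8.76 in untreated cells. It rose by 1.29 ± 0.23 (SE, 95% interval 0.74 to 1.85, adjusted p = 0.018), and the gap of 0.70 between its TGFβ arrays was the widest of all members. The rise was 0.94 without TGFβ replicate 1 and 1.65 without TGFβ replicate 2, and without untreated replicate 2 it did not pass (1.20, adjusted p = 0.059). The other syndecans moved little. Sdc1, the main epithelial syndecan, had 12.18 and 12.16 in TGFβ-treated cells, against 11.96 and 11.96 in untreated cells, a difference of 0.21 that did not pass (95% interval 0.03 to 0.38, adjusted p = 0.13). Sdc2 differed by -0.06 (95% interval -0.27 to 0.15) and Sdc4, the focal adhesion syndecan, by -0.0047 (95% interval -0.20 to 0.19, and 0.012 after median centring). Cspg4, the NG2 proteoglycan of pericytes and some tumours, differed by -0.14 (95% interval -0.42 to 0.14), at means of 6.21 in TGFβ-treated cells and 6.35 in untreated cells.

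**Figure D3:**
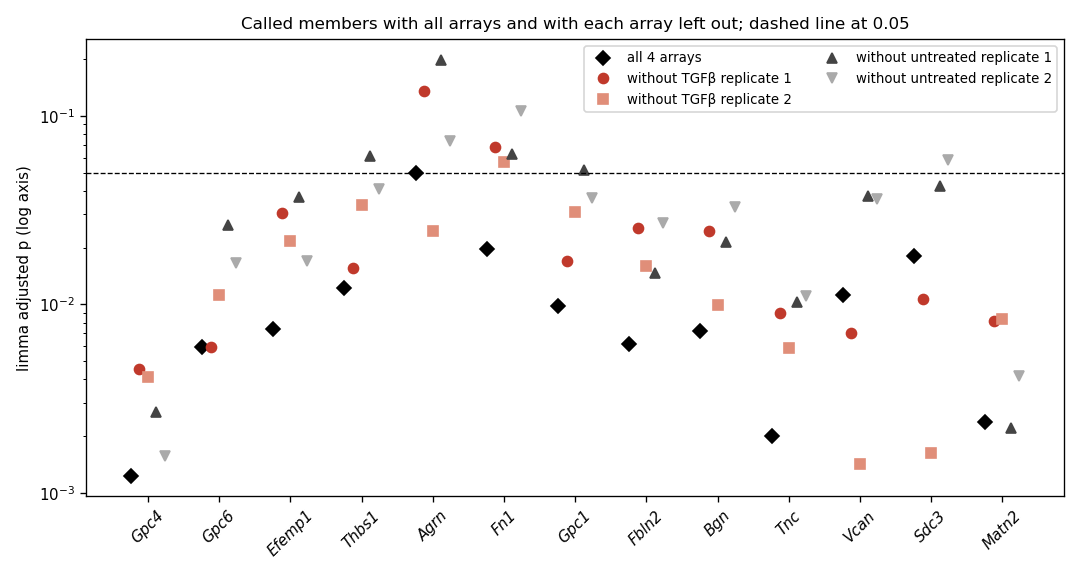
Adjusted p (log axis) of the 13 members that passed with all 4 arrays (diamonds) and with each array left out, with a dashed line at 0.05. Fn1, Agrn, Thbs1, Gpc1 and Sdc3 cross the line in at least 1 of the 4 settings, and the other 8 stay under it.

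Genes of the same pathway outside the list were described by 3 further lists, which have no member in common with it. They too were chosen with earlier results of these data known, so their shares beside all genes are descriptions and were not tested. Of 51 measured genes for glycosaminoglycan chain synthesis and remodelling, 17 rose, 5 fell and 29 did not pass, with a median log2 difference of 0.13, against 0.01 for all genes. These are shares of 33.3% higher and 9.80% lower, against 6.49% and 7.15% of all genes. Both means were under 7 for 18 of the 51, against 9022 of all 19939 genes. Chst11, a chondroitin 4-O-sulphotransferase, read 10.18 and 10.40 in TGFβ-treated cells, against 7.54 and 7.34 in untreated cells, a rise of 7.21-fold. Has2, a hyaluronan synthase, rose 6.31-fold, Ust, which sulphates uronic acid in dermatan and chondroitin chains, 3.84-fold, and Csgalnact1, which starts chondroitin chains, 2.46-fold. Sulf2, which removes 6-O-sulphate from heparan sulphate at the cell surface, read 7.08 and 7.31 in TGFβ-treated cells, against 9.64 and 9.30 in untreated cells, and fell by 2.28 on the log2 scale. Hs3st1, a heparan sulphate 3-O-sulphotransferase, fell by 1.70. Sulf1, which has the same activity as Sulf2, rose by 0.70, at means of 7.04 in TGFβ-treated cells and 6.34 in untreated cells.

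Split by chain after the values were seen, 9 of the 16 chondroitin and dermatan sulphate genes rose and 0 fell, with 7 that did not pass. Of 23 heparan sulphate genes 6 rose, 4 fell and 13 did not pass, and of 12 genes for the linker region, precursors and hyaluronan 2 rose, 1 fell and 9 did not pass. The background is again 6.49% higher and 7.15% lower, and the split, made on these values, was not tested. Many of these calls were small and near the threshold. The number of glycosaminoglycan genes that rose was 10 without TGFβ replicate 1, 9 without untreated replicate 1 and 9 without untreated replicate 2. The number that fell was 2 without TGFβ replicate 1, 3 without untreated replicate 1 and 3 without untreated replicate 2.

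Of 60 further matrix glycoproteins and proteoglycans 8 rose, 4 fell and 48 did not pass (median 0.03). Both means were under 7 for 43 of the 60, against 9022 of all 19939 genes. The shares were 13.3% higher and 6.67% lower, against 6.49% and 7.15% of all genes, so the share of falls was at the background. Igfbp7, a secreted relative of the insulin-like growth factor binding proteins, rose 3.73-fold, and Edil3, an integrin ligand, and Thbs3, another thrombospondin, rose 2.46-fold and 2.44-fold. Ecm1 rose 2.01-fold. Npnt, nephronectin, an integrin α8 ligand of basement membranes, fell by 2.36 on the log2 scale, and its values were 7.41 and 7.39 in TGFβ-treated cells, against 9.65 and 9.87 in untreated cells. The count of those that fell was 2 without TGFβ replicate 1, untreated replicate 1 or untreated replicate 2.

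Of 23 crosslinking enzymes and matrix receptors 4 rose, 7 fell and 12 did not pass (median -0.12). These are 17.4% higher and 30.4% lower, against 6.49% and 7.15% of all genes. Only 4 of the 23 had both means under 7, against 9022 of all 19939 genes, so the background holds more dim genes. The integrin subunits Itga5, Itgb1 and Itgb3 rose by 2.13, 0.81 and 3.40 on the log2 scale. Others of the list, Itgav (-0.12), Itga9 (0.10), Itgb5 (0.28) and Itgb8 (-0.49), did not pass. Itga8, the receptor subunit for nephronectin, fell by 3.23, and Itgb6 and the hemidesmosome subunit Itgb4 fell by 2.64 and 1.41 on the log2 scale. Loxl2, a lysyl oxidase relative, rose 4.29-fold on a probe set that also lists Gm21451, while Loxl4 fell by 1.39.

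**Figure D4:**
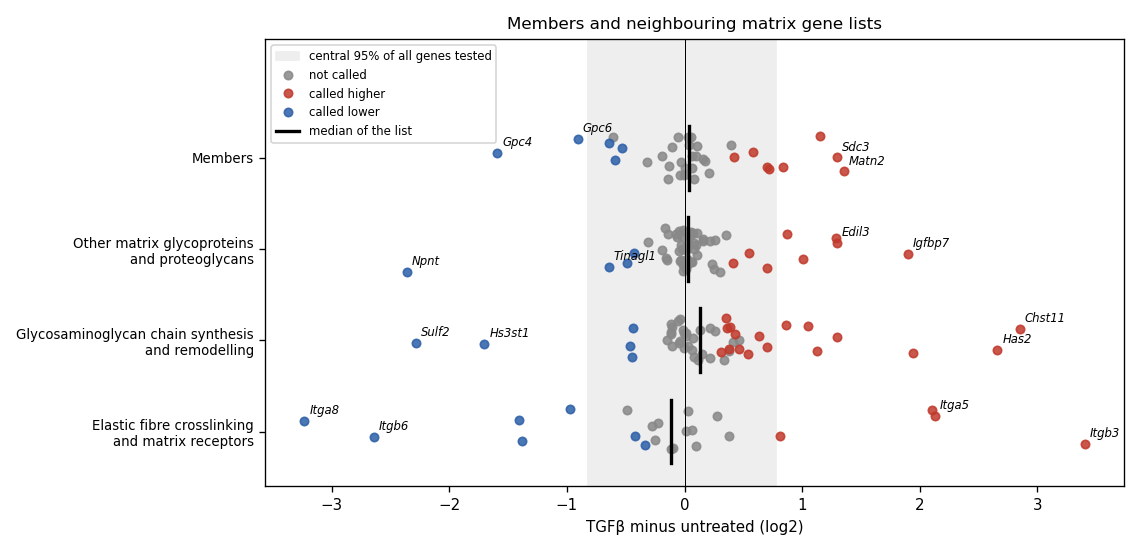
Log2 differences (TGFβ minus untreated, x axis) of the members and of the 3 further matrix lists (rows, points spread vertically for legibility), with list medians as black bars and the central 95% of all genes tested (-0.82 to 0.78) in grey. Chst11, Has2 and Itgb3 are among the genes beyond the largest rise of the members, and Itga8, Itgb6, Npnt, Sulf2 and Hs3st1 lie beyond their largest fall.

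Gpc4, the member with the largest change, was set against all genes outside the list by the root mean square distance over the 4 arrays, after each gene's own mean over the arrays was removed. The nearest 5 were Dglucy (0.035), Ssbp2 (0.057), Smarca2 (0.065), Ano3 (0.070) and LTO1 (0.071), with log2 differences of -1.56, -1.55, -1.47, -1.63 and -1.54. With 4 arrays, likeness mostly reads the size of the difference between the groups.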

How the data were processed

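RNA of 2 TGFβ-treated and 2 untreated samples was measured on Affymetrix arrays. Per the submitters' processing notes, the authors made the deposited log2 values per probe set with RMA in oligo, version not stated. The array's gene table gives 1 symbol for 21789 of 35556 probe sets, and the brightest such probe set stood for a gene. Loxl2, with only a several-symbol probe set, was added, for 19939 genes. No further filter or normalization was applied.

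Groups were compared with limma 3.58.1 (R 4.3.3, two-sided moderated test, 2 residual and 3.77 prior degrees of freedom), adjusted after Benjamini and Hochberg over all genes, with calls at an adjusted p under 0.05. By exact permutation, 2 against 2 arrays allow no p under 0.333. The procedure was also run on simulated data with independent noise on each array, which does not show how far the calls on these arrays hold. The closing section names the alternatives. Members and lists were chosen with earlier results of these data known. All members are named, and of each further list up to 4 called rises and 4 called falls, from the largest down. For glycosaminoglycan genes (Sulf2, Hs3st1) and further glycoproteins (Npnt) fewer falls are named than were called. Sulf1 and the integrin subunits that did not pass were named after their values were seen. Promoters come from RefSeq (GRCm38.p6). The number of arrays limits the precision.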

Additional observations from a re-analysis of the deposited data

How the results depend on the processing

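The mean of a gene's probe sets was run, though it leaves members' values unchanged, since each has a single probe set. Further alternatives were cyclic loess, median centring, quantile normalization repeated over genes, and filters on dim genes. Trended robust variances, a replicate block, a 2-fold threshold and each array left out were also alternatives. Of the 13 members that passed, 8 kept their call under all of these but the 2-fold threshold, wherever a filter retained them, and 5 (Fn1, Agrn, Thbs1, Gpc1 and Sdc3) lost it without at least 1 array. Of the 24 that did not pass, Fbln1 and Postn passed under an alternative. With a 2-fold threshold 3 members rose and 1 fell, against 324 and 354 of all genes. Rises and falls were then 4 and 1 for further glycoproteins, 6 and 2 for glycosaminoglycan genes, and 3 and 4 for receptors and crosslinkers. Without the dimmer 50% of genes, 1140 of the 9969 genes tested rose and 1316 fell. In that setting 7 of 19 members rose and 3 fell, and of 12 further glycoproteins tested 4 rose and 2 fell. Of 29 glycosaminoglycan genes 13 rose and 4 fell, and of 18 receptors and crosslinkers 4 rose and 7 fell. The main comparison was planned without a replicate block. Same-numbered arrays deviated from their group means with a correlation of -0.21 over genes. A block for the replicate number left 786 rises and 839 falls over all genes. It left 10 and 2 for glycosaminoglycan genes, 6 and 2 for further glycoproteins, and 4 and 5 for receptors and crosslinkers. Under that block 7 members rose and 4 fell, with Fn1 and Agrn not called and no other member's call changed. With a crossed pairing, chosen after seeing that correlation, 9 members rose and 5 fell, with 1683 and 1957 over all genes. Leaving out each array gave 6 to 8 rises and 3 to 6 falls among members, with a median of -0.016 to 0.061. It gave 741 to 1168 and 751 to 1093 over all genes, 6 to 9 and 2 to 3 for further glycoproteins, 9 to 17 and 2 to 4 for glycosaminoglycan genes, and 4 to 6 and 5 to 6 for receptors and crosslinkers. The cause of these changes was not tested, beyond the fewer arrays or genes they use. Without 1 array, signs turned for members with differences near 0, to between -0.053 and 0.070 for Eln, -0.016 and 0.18 for Mfap2, -0.0046 and 0.20 for Ltbp2, -0.28 and 0.077 for Dcn, and -0.064 and 0.075 for Lum. The same held for Hspg2 (-0.11 to 0.17), Nid1 (-0.13 to 0.25), Sdc4 (-0.067 to 0.058), Gpc3 (-0.025 to 0.11) and Cspg4 (-0.29 to 0.0068). Sdc4 was also at 0.012 after median centring. The lone array of a group is assumed to vary like the other group.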
